A study of Drosophila melanogaster with 384 samples.

Results

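Newly transcribed regions (NTRs) are stretches of the Drosophila genome from which RNA was sequenced and assembled into a gene model, but which match no gene of the FlyBase annotation. The 355 NTRs with the highest read counts are described here. They were chosen by their identifier, their quality flag and a mean count of at least 50 over all libraries, and they are 355 of the 22726 NTRs and of the 39823 gene models considered. The mean count is therefore a selection criterion and is given below as a description. All other measures, namely the difference between the sexes, the variation among lines in each sex and the correlation of line means between the sexes, were not used to choose the members.

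RNA was sequenced from whole flies of 96 DGRP lines in 384 libraries, with 2 replicates of males and 2 replicates of females for each line. The DGRP lines are inbred Drosophila melanogaster lines derived from flies caught in the wild, so the flies of a line are nearly identical in genotype whereas different lines carry different natural alleles. For a library, RNA was taken from 30 males or 25 females pooled, all of them mated, 3 to 5 days old and reared on cornmeal and molasses medium containing 10% (v/v) ethanol. Every group thus had the same exposure, flies reared on medium without ethanol were not analysed here, and no value below measures an effect of ethanol. As whole flies were used, a higher proportion of the cells that make a transcript and more of the transcript per cell cannot be told apart.

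Gene models of this kind arise where reads cover sequence that no annotated exon covers. They can be long non-coding RNAs, RNAs transcribed from the strand opposite to a gene, unannotated ends of genes, or introns that have not yet been spliced out or degraded. Ribosomal RNA was depleted, and the study's methods describe no selection by poly(A) tail, so RNA without such a tail could also be sequenced. In Drosophila the testis is known for transcribing many regions that no other tissue transcribes, and the female germ line loads RNA into the egg for use by the early embryo. Differences in RNA level among inbred lines within a sex reflect genotype together with any difference in handling between the pools of flies.

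Male libraries held 6481833 to 17401404 counts on gene models (median 10214028), and female libraries held 5356737 to 16341651 (median 10464967). Markers of the male reproductive tract summed to between 9786 and 21924 CPM (counts scaled to a common library size) in male libraries and to between 0 and 555 CPM with a median of 1.66 in female libraries, but 40 female libraries from 35 lines had over 10 times that median. Markers of the ovary and yolk summed to a median of 41.5 CPM in male libraries, of which 7 had over 10 times that median, and to between 9974 and 43794 CPM in female libraries. The libraries were sequenced on 7 flow cells, here called A to G. Replicate 1 was run on A and replicate 2 on B for 76 lines in males and for 45 lines in females, whereas the other lines were spread over other flow cells, so that flow cell and line were partly confounded. The labels give no statement on whether a line's replicates were separate cultures, so p-values measure the spread between these libraries.

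The members held 1.63% of the counts on gene models and 68.9% of the counts on NTRs. A single region, XLOC_027295, held 49.5% of all NTR counts, with a mean of 121552 counts per library, and XLOC_027679 held 3.59% with a mean of 8824. The other members were far below these, with a median of 78.8 counts over the 355, and 119 of them reached a mean of 100. A count was present in every library for 282 members. Members were not divided evenly between the sexes: 218 reached a mean of 50 counts in both sexes, 131 in males only and 6 in females only. The members just inside the limit were XLOC_019425 at 50.01 counts, XLOC_011898 at 50.03 and XLOC_011968 at 50.14, and the regions just outside it were XLOC_031571 at 49.8, XLOC_027126 at 49.9 and XLOC_015373 at 49.99. XLOC_015373, just outside, averaged 95.6 counts in males and 4.34 in females.

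Release 5 positions were at hand for 18 of the 355 members, from the tables of regions that the study had listed for a line by treatment interaction, which was tested in part on these libraries. Of the 18, 12 were intronic, 4 were antisense to a gene and 2 were intergenic. Their lengths ran from 652 to 23414 bases (median 2810.5), and 6 of them were on chromosome arm 2L. Among the more abundant of these were XLOC_027039, an intronic region at 4:1060737-1064093, XLOC_032094, an antisense region at X:14919068-14942481, and XLOC_012695, an intronic region at 3L:4414859-4417790. XLOC_027039 had between 31.7 and 133 CPM with a median of 62.6 in males and between 11.8 and 92.3 CPM with a median of 35.7 in females, and DGRP_517 was the lowest and DGRP_716 the highest line in both sexes. The other 337 members are identified by their identifier only. Their genomic context is not analysed here, and levels are therefore compared between the sexes and among lines but not between regions per length.

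Levels of the 2 regions that dominated the NTR counts were close in the sexes. XLOC_027295 had between 2452 and 18407 CPM with a median of 12673 in males and between 1737 and 15569 CPM with a median of 10540 in females (96 lines each). The lowest line was DGRP_335 in both sexes, at 1795.5 and 3109 CPM in its male replicates and 1590.1 and 1884.5 CPM in its female replicates, whereas the next lowest line was at 8099 CPM in males and at 7760 CPM in females. The male level exceeded the female level in 81 of 96 lines, with a log2 fold change of 0.16 (SE 0.023 from limma, as for all SEs below, edgeR adjusted p = 6.81e-10), but with replicate 1 alone the fold change was 0.06 and was not significant (edgeR adjusted p = 0.156). Line was not significant for XLOC_027295 in males (F 1.22, edgeR adjusted p = 0.183), although it was with pool as a covariate in limma (adjusted p = 4.4e-09), and it was significant in females (F 3.00, edgeR adjusted p = 1.76e-07). XLOC_027679 had between 322 and 1372 CPM with a median of 821 in males and between 468 and 1395 CPM with a median of 798 in females. Its log2 fold change was -0.02 (SE 0.035, edgeR adjusted p = 0.585), and its sign depended on the scaling of the libraries.

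Most abundant NTRs were moderately higher in males than in females. After the counts of both replicates had been added, the sexes were compared with line as a block by edgeR's quasi-likelihood F-test with Benjamini-Hochberg (BH) adjustment over all 18062 transcripts tested, with significance at an adjusted p under 0.05. Of the 355 members, 317 were higher in males, against 57.8% of all transcripts tested, and 23 were higher in females, against 37.1%. The remaining 15 did not pass the test. The share with a difference in either direction was 95.8% of the members and 94.9% of all transcripts. Fold changes were mostly small: the log2 fold change (males over females) had a median of 0.59 for the members and 0.35 for all transcripts tested, and 273 of the 355 members had a log2 fold change between 0 and 1. Annotated transcripts with the same minimum mean count had a median of -0.17, and 4679 of 10724 of them were higher in males. Annotated long non-coding and antisense RNAs with the same minimum count were higher in males in 94 of 124 cases, with a median log2 fold change of 4.62.

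The minimum of 50 counts over both sexes lets a region pass on the strength of its male libraries alone, and all transcripts shifted with the scaling. The sex difference is therefore not independent of the selection for the 131 members that reached 50 in males only and the 6 in females only. Of the 218 members that reached 50 counts in both sexes, 187 (85.8%) were higher in males and 17 (7.80%) in females. The shares of other transcripts held to 50 counts in both sexes are not given here, so these values have no background at the same filter. The median of all transcripts was 0.49 with DESeq2's size factors and 0.47 with total counts. The median of the members exceeded it by 0.24 under each of these scalings. A change of scaling shifts all transcripts nearly alike, so it could hardly alter this excess. The filter did alter it: the medians of the members and of all transcripts were 0.84 and 0.13 with a minimum of 50 counts. With no filter they were 0.51 and 0.12. The number of members higher in females depended on these settings. It was 9 with DESeq2's size factors, 10 with total counts, 8 with a minimum of 50 counts and 32 with no filter. In the same order, 331, 329, 342 and 305 members were higher in males. The share of all transcripts that differed in either direction was 95.6%, 95.3%, 96.7% and 70.6%. Their shares by direction are not given here for these settings or for the sets of lines below, so the counts describe the members only. Relative to the median of all transcripts, 265 of the members that passed the test lay above it and 75 below it. In the 44 lines with both sexes on flow cells A and B, 316 members were higher in males and 15 in females. The median log2 fold change there was 0.63 for the members and 0.36 for all transcripts. Without the 40 lines that had a library with markers of the other sex, 312 members were higher in males and 22 in females. The medians were then 0.58 for the members and 0.33 for all transcripts.

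**Figure D1:**
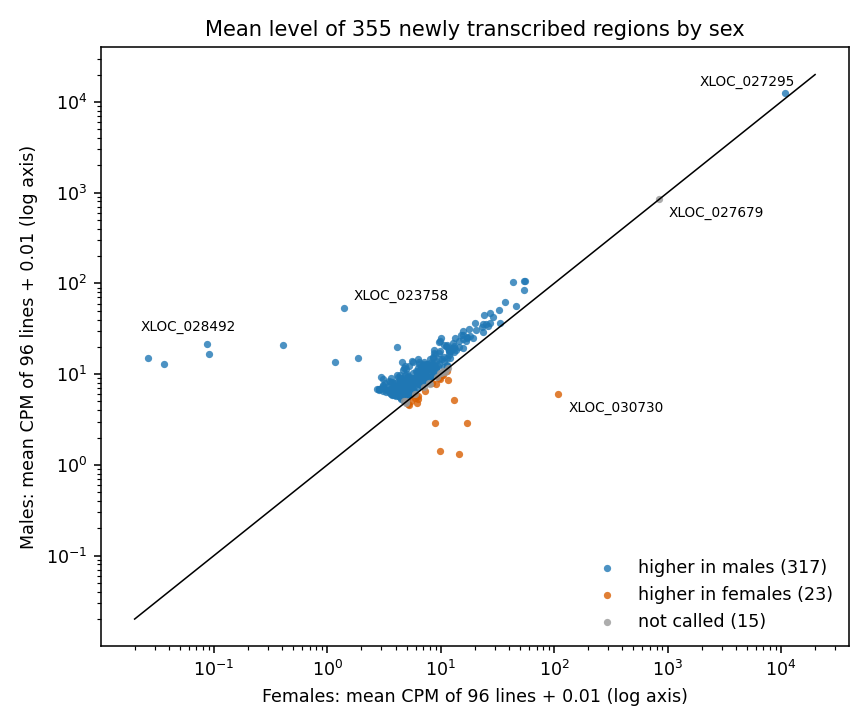
Mean level of each of the 355 abundant newly transcribed regions in males (vertical axis) and females (horizontal axis), in CPM plus 0.01 on log axes, with the line of equal levels. Most points lie slightly above that line, 8 lie more than 8-fold above it by the fitted fold change, and XLOC_030730 lies far below it.

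A small number of members were detected almost only in males. All 8 members with a log2 fold change above 3 reached a mean of 50 counts in males only. Their sex difference is therefore not independent of the selection, and its p-values are a description. The log2 fold change exceeded 1 for 50 members and 3 for 8, and 53 members were higher in males in every one of the 96 lines. Its upper quartile was 0.85 for the members and 1.17 for all transcripts tested, so values above 1 were less common among the members. The share of all transcripts with 1 direction in every line was not computed. XLOC_028492 had between 3.81 and 26.5 CPM with a median of 14.2 in males, and between 0 and 0.580 CPM with a median of 0 in females. No male library lacked a count of XLOC_028492, which totalled 30310 counts in males, whereas 178 female libraries had none and the females totalled 27 counts. The ranges of the sexes did not overlap, and the fitted log2 fold change was 9.52 (edgeR adjusted p = 6.14e-91).

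XLOC_027563 and XLOC_027581 showed the same pattern. XLOC_027563 had between 4.24 and 20.5 CPM with a median of 12.5 in males, against between 0 and 0.187 CPM in females (log2 fold change 8.56, edgeR adjusted p = 1.58e-88). XLOC_027581 had between 9.86 and 37.2 CPM with a median of 21.5 in males, against between 0 and 2.93 CPM in females (log2 fold change 8.41, edgeR adjusted p = 5.11e-72). In females of DGRP_555, the highest line for XLOC_027581, the replicates had 5.86 and 0 CPM and thus did not agree. The levels of XLOC_027563 and XLOC_027581 were alike over male lines, with r = 0.78 after pool means were subtracted, where a pool is the combination of flow cell and lane.

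XLOC_008994 and XLOC_023758 were also higher in males in all 96 lines but were detected in females. XLOC_008994 had between 2.65 and 46.0 CPM with a median of 20.7 in males and between 0 and 1.64 CPM with a median of 0.315 in females (log2 fold change 5.70, edgeR adjusted p = 6.81e-74). XLOC_023758 had between 14.6 and 103 CPM with a median of 52.4 in males and between 0.0377 and 10.5 CPM with a median of 0.950 in females (log2 fold change 5.62, edgeR adjusted p = 5.49e-61). DGRP_355 was the highest male line for XLOC_008994, XLOC_023758 and XLOC_027581. The female level of XLOC_023758 was highest in DGRP_911, where replicate 1 had 20.6 CPM and replicate 2 had 0.509 CPM.

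Over the 8 members with a log2 fold change above 3, the correlation of the female level with the summed male tract markers in female libraries was between 0.10 and 0.59 with a median of 0.19 over 96 lines, against a median of 0.01 for the other 347 members. The part of these markers in the female levels was not tested. XLOC_005772, an intronic region at 2L:20332319-20334062, did not meet the rule for named regions, since it was higher in males in 94 of 96 lines, and was singled out after its values were seen. It had between 0 and 32.4 CPM with a median of 16.9 in males, and between 0 and 1.23 CPM with a median of 0 in females (log2 fold change 7.77, edgeR adjusted p = 1.71e-68).

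Few members were higher in females, and 4 were so in all 96 lines. XLOC_030730, one of the 8 most abundant members, had between 1.54 and 14.6 CPM with a median of 6.13 in males and between 39.0 and 203 CPM with a median of 110.3 in females. The ranges did not overlap, and the log2 fold change was -4.25 (SE 0.067, edgeR adjusted p = 5.69e-76). XLOC_019689 had between 1.79 and 4.62 CPM with a median of 2.86 in males and between 4.72 and 26.4 CPM with a median of 17.0 in females, again with no overlap (log2 fold change -2.57, SE 0.046, edgeR adjusted p = 6.3e-74). These 2 regions were alike over female lines, with r = 0.78 after pool means were subtracted.

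XLOC_006565 had between 0 and 4.97 CPM with a median of 1.42 in males and between 0.734 and 21.1 CPM with a median of 9.53 in females (log2 fold change -2.91, SE 0.11, edgeR adjusted p = 2.45e-46). XLOC_000859 had between 0.669 and 6.05 CPM with a median of 2.70 in males and between 4.67 and 16.4 CPM with a median of 8.63 in females (log2 fold change -1.73, SE 0.053, edgeR adjusted p = 7.77e-53). The ranges of males and females overlapped for both regions, although every line had the lower level in males. Both regions and XLOC_019689 reached a mean of 50 counts in females only, so their sex difference is likewise not independent of the selection.

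**Figure D2:**
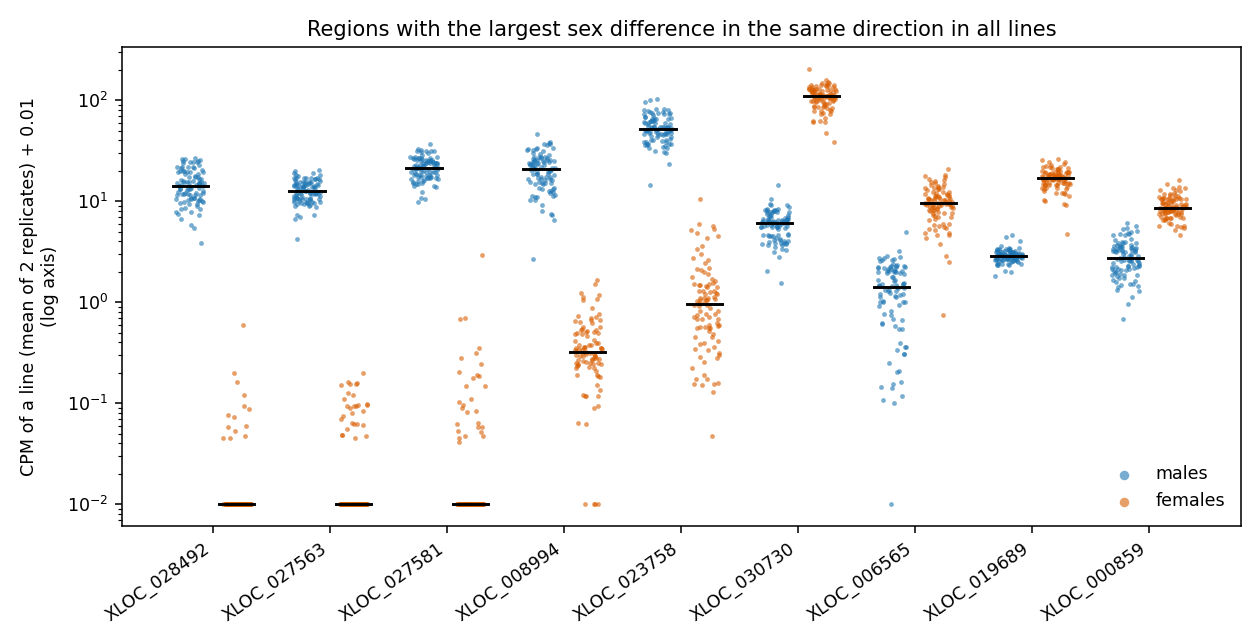
Level of 9 newly transcribed regions in each of 96 lines, males to the left and females to the right of each position, in CPM plus 0.01 on a log axis, with points for lines and bars for medians. The first 5 regions are higher in males in every line and the last 4 are lower in males in every line. Points at 0.01 are lines without a count.

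The 8 most abundant members include 5 that have not been described above. XLOC_028621 had between 38.9 and 256 CPM with a median of 102 in males and between 28.9 and 112 CPM with a median of 55.2 in females (log2 fold change 0.90, SE 0.031, edgeR adjusted p = 3.43e-49). XLOC_028247 had between 42.5 and 302 CPM with a median of 79.3 in males and between 16.9 and 176 CPM with a median of 40.0 in females (log2 fold change 0.96, SE 0.030, edgeR adjusted p = 1.59e-53). Both were higher in males in all 96 lines although the ranges overlapped.

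XLOC_019221 had between 0.895 and 207 CPM with a median of 108 in males and between 1.91 and 123 CPM with a median of 42.0 in females (log2 fold change 1.20, SE 0.05, edgeR adjusted p = 2.37e-45). XLOC_020233 had between 54.0 and 148 CPM with a median of 81.1 in males and between 29.2 and 119 CPM with a median of 53.0 in females (log2 fold change 0.62, SE 0.028, edgeR adjusted p = 1.47e-39). XLOC_026561 had between 3.06 and 83.6 CPM with a median of 57.7 in males and between 2.68 and 81.5 CPM with a median of 45.3 in females (log2 fold change 0.27, SE 0.028, edgeR adjusted p = 5.16e-16). All 3 ranges overlapped between the sexes, and the male level was higher in 94 lines for XLOC_019221, in 95 for XLOC_020233 and in 81 for XLOC_026561.

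Line differences were found for most members in both sexes. Line was tested within each sex over all libraries of that sex with edgeR's quasi-likelihood F-test, in which the spread between replicates is the error. In males line was significant for 336 of 355 members, against 85.0% of the 18944 transcripts tested in males. In females it was significant for 282 of the 350 members that could be tested, against 75.0% of the 14760 transcripts tested in females, and the other 5 members had a mean under 5 counts there. Line was significant in both sexes for 275 members, in males only for 56, in females only for 7 and in neither sex for 12. The shares of all transcripts in these classes are not given here. The median F was 3.36 for the members and 3.06 for all transcripts in males, and 1.97 for the members and 1.91 for all transcripts in females. Annotated transcripts averaging 50 counts or more over all libraries, and at least 5 in the sex tested, were set beside them. Their median F was 3.52 in males and 2.09 in females. Line was significant for 94.6% of the members and 91.3% of these annotated transcripts in males, and for 80.6% of the members and 84.9% of these annotated transcripts in females.

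The median over members of the SD between lines was 0.31 on the log2 scale in males, against an SD between replicates of 0.26, and 277 members had the larger SD between lines. In females these medians were 0.42 and 0.44, and 161 members had the larger SD between lines. With pool as a covariate in limma, line was significant for 349 members in males, or 98.3% against 89.3% of all transcripts tested, and for 282 in females, or 80.6% against 79.3%. Within the lines on flow cells A and B, line was significant for 336 members in males (76 lines), or 94.6% against 83.7% of all transcripts tested, and for 225 in females (45 lines), or 64.3% against 54.5%.

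Pairs of members were more often positively than negatively correlated over lines. The median correlation over the 62835 pairs of members, computed on line means after pool means were subtracted, was 0.11 in males and 0.24 in females, and 80.7% of pairs in males and 92.9% in females had a positive value. Pairs of other transcripts were not computed, and the sexes were not compared by a test. The common level of the members, that is, the mean over members of the deviation in log2 CPM, had an SD of 0.13 between lines and 0.11 between replicates in males, against 0.23 and 0.26 in females. The lowest male library for the common level was replicate 1 of DGRP_911 at -0.79, with the next at -0.36, and males of DGRP_911 were the lowest line for 82 of the 355 members. In females DGRP_765 was the lowest line for 56 members. The male libraries of DGRP_911 were not on flow cells A and B, and the count of 336 members for the 76 lines on those flow cells therefore excludes them.

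The lowest line was at 10% or less of the median line for 28 members in males and for 40 in females, and some of these members were nearly absent from several lines. XLOC_028259 had the second largest F for line in males (60.8) and the third largest in females (29.9), with edgeR adjusted p = 7.22e-60 and 2.13e-45. In 21 lines it was at 10% or less of the median line in males, and the 21 lines at or under 10% of the median in females were the same lines. These 21 lines had between 0.200 and 1.76 CPM in males and between 0.109 and 1.09 CPM in females. The other 75 lines had between 6.48 and 92.0 CPM with a median of 28.3 in males and between 1.69 and 45.5 CPM with a median of 14.7 in females. Thus no line fell between 1.76 and 6.48 CPM in males.

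XLOC_026672 was at 10% or less of the median in 10 lines in both sexes and in 1 further line in females. In the 10 lines it had between 0 and 0.624 CPM in males and between 0 and 0.454 CPM in females, and DGRP_320 had no count in any of its 4 libraries. The other 86 lines had between 1.66 and 33.7 CPM in males (median 6.65) and between 0 and 29.5 CPM in females (median 5.68). The 10 lines were thus apart from the others in males, whereas the ranges overlapped in females. The highest line was DGRP_315 at 33.0 and 34.3 CPM in male replicates and 27.4 and 31.6 CPM in female replicates, and DGRP_808 was second with 24.5 CPM in males and 20.45 CPM in females.

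The highest line had at least 10 times the level of the median line for 10 members in males and for 18 in females. XLOC_031440 had the third largest F for line in males (46.1, edgeR adjusted p = 2.34e-53) and the largest in females (38.1, edgeR adjusted p = 5.9e-49). In DGRP_748 it had 254 and 283 CPM in the male replicates and 227 and 229.9 CPM in the female replicates, and in DGRP_589 it reached 148 CPM in males and 185 CPM in females. The median line was at 0.418 CPM in males and 0.392 CPM in females. XLOC_016777 stood out in DGRP_461, with 438 and 411 CPM in the male replicates and 240.2 and 236 CPM in the female replicates, whereas the next line was at 14.2 CPM in males and 8.06 CPM in females. Its edgeR F for line was 44.1 in males and 18.2 in females (edgeR adjusted p = 2.34e-53 and 8.2e-36). The F in males depended on the model and on the lines used for XLOC_016777, at 8.94 in limma, 10.5 in limma with pool as a covariate and 2.73 in edgeR over the lines outside flow cells A and B (adjusted p = 0.0181). Those lines do not include DGRP_461, whose male libraries were on flow cells A and B. For XLOC_031440 the F in limma was 3.26 in males and 4.81 in females, and with pool as a covariate it was 7.49 in males and 4.52 in females. Hence the rank of these F values holds for edgeR, while line stayed significant in each of these fits.

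XLOC_027920 and XLOC_028140, both intergenic, varied over a wide range. XLOC_027920 had the largest F for line in males (69.6, edgeR adjusted p = 1.65e-62) and an F of 28.7 in females, and XLOC_028140 had an F of 39.1 in males and 26.4 in females. They were placed at Uextra:693731-695063 and Uextra:10963510-10964263, where Uextra is the part of release 5 that joins scaffolds not assigned to a chromosome. XLOC_027920 had between 0.739 and 84.3 CPM with a median of 7.80 in males and between 0 and 53.9 CPM with a median of 4.68 in females. XLOC_028140 had between 0.479 and 51.0 CPM with a median of 4.50 in males and between 0 and 31.6 CPM with a median of 2.18 in females. DGRP_730 was the highest line for both regions in both sexes, and the next line in males was at 45.8 CPM for XLOC_027920 and 24.9 CPM for XLOC_028140. Of the 96 lines, 1 in males and 17 in females were at 10% or less of the median for XLOC_027920, and 0 in males and 21 in females for XLOC_028140. Over the male lines outside flow cells A and B the edgeR F was 34.6 for XLOC_027920 and 19.8 for XLOC_028140 (adjusted p = 3.39e-12 and 1.12e-09). Reads that match several places were not counted, so regions with near-identical copies elsewhere have uncertain levels.

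XLOC_027317 had a far larger F for line in females than in males. It had between 0.160 and 10.4 CPM with a median of 1.04 in males and between 0.0816 and 107 CPM with a median of 7.0 in females. The F for line was 7.49 in males and 33.0 in females (edgeR adjusted p = 2.53e-20 and 2.25e-47). DGRP_427 was the highest line in both sexes, with 11.2 and 9.54 CPM in the male replicates and 89.2 and 125 CPM in the female replicates. The region was higher in males in 4 of 96 lines (log2 fold change -2.95, SE 0.16, edgeR adjusted p = 5.64e-35). XLOC_027317 averaged 143 counts per library in females and 14.0 in males, so it reached the minimum mean count of a member in females only. Its sex difference is therefore not independent of the selection, and the p-value of that difference is a description.

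The sex by line interaction, tested over all 384 libraries with edgeR's quasi-likelihood F-test, was significant for 87 of 355 members, against 49.8% of the 18062 transcripts tested and 6735 of 10724 annotated transcripts with the same minimum mean count. The median F was 1.17 for the members and 1.40 for all transcripts. Among the 218 members with at least 50 counts in both sexes the interaction was significant for 55. It was found for 6 of the 8 members with a log2 fold change of at least 3 and for 5 of the 6 with a log2 fold change of -1 or lower, but for 52 of the 273 members between 0 and 1. Of those 8 members, 5 averaged under 5 counts in females. The largest interaction F was that of XLOC_027317 (6.40, edgeR adjusted p = 4.54e-26), and those of XLOC_027920 and XLOC_028140 were 5.95 and 5.61 (edgeR adjusted p = 8.26e-24 and 5.7e-22). In limma with a term for flow cell the interaction was significant for 89 members, against 53.6% of all transcripts tested.

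Levels of the members in the males and females of a line were positively correlated. The Pearson correlation over the 96 line means of log2 CPM was computed for the 14141 transcripts that averaged 5 counts or more in both sexes, each with a two-sided permutation test of 100000 permutations and BH adjustment. It was significant for 323 of the 350 members tested, against 66.8% of all transcripts tested. All 323 correlations were positive, and the only negative value, that of XLOC_030730, had an unadjusted permutation p above 0.05, as did every negative Spearman correlation. The median r was 0.48 for the members, 0.33 for all transcripts, 0.36 for annotated transcripts with the same minimum mean count and 0.50 for the 64 annotated lncRNA and antisense RNA among these. At least 0.5 was reached by 151 members and at least 0.8 by 30.

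The correlations were recomputed with the sequencing pool taken into account. With the mean of each pool subtracted within each sex, 334 members were significant, against 68.5% of all transcripts, and the median r was 0.50. It was 0.52 in the 45 lines with females on flow cells A and B and 0.44 in the 51 other lines. When replicate 1 of females was set against replicate 2 of males, the median r was 0.30, against 0.20 for all transcripts. Then 235 members were significant, against 45.3% of all transcripts. Of the 275 members for which line was significant in both sexes, 266 also had a significant correlation between the sexes. The same share is not given here for all transcripts, so this count describes the members only.

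**Figure D3:**
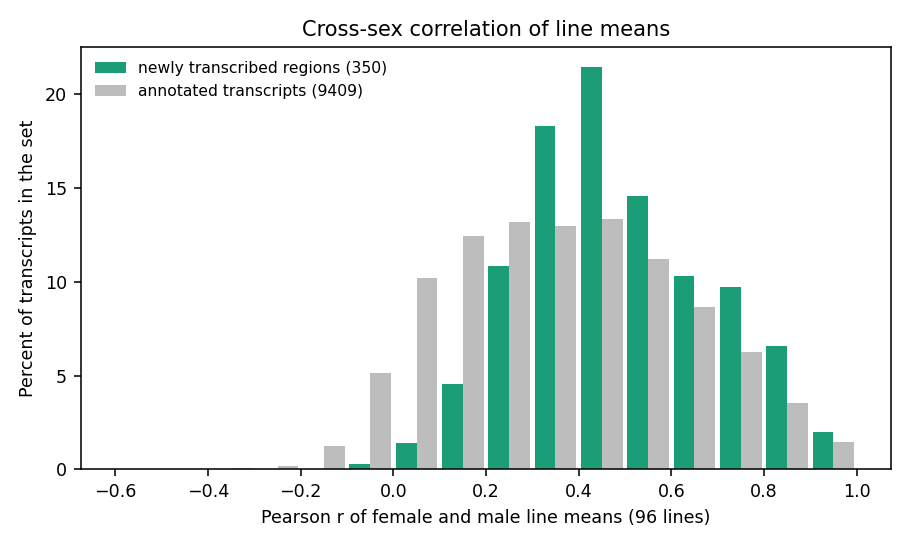
Distribution of the Pearson correlation between female and male line means over 96 lines, as the percent of 350 newly transcribed regions and of 9409 annotated transcripts averaging 50 counts or more in each bin of 0.1. The largest share of the regions, 21.4%, is between 0.4 and 0.5, and 5.11% of the annotated transcripts but 0.286% of the regions are between -0.1 and 0.

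Among members with at least 50 counts in both sexes, XLOC_028259, XLOC_026672, XLOC_019221 and XLOC_019276 had the highest correlations. The correlation was also computed separately for the lines that were low in both sexes and for the other lines. It was 0.62 in the 21 low lines and 0.90 in the 75 others for XLOC_028259, and 0.70 in the 10 low lines and 0.88 in the 86 others for XLOC_026672. These sets were defined on the level itself, and the values are a description. XLOC_019221 had r = 0.92 and rho = 0.79, and XLOC_019276 had r = 0.91 and rho = 0.76, with permutation p = 1e-05 for each, which is the smallest that 100000 permutations can give. Without the 2 lines farthest from the median female level, r was 0.86 for XLOC_019221 and 0.87 for XLOC_019276.

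A high correlation rested on 1 or 2 lines for some abundant or highly variable members. XLOC_027295 had r = 0.71 and rho = 0.39 over 96 lines (permutation p = 2e-05 and 0.00019), but r = 0.36 without the 2 lines farthest from the median. XLOC_031440 had r = 0.84 and rho = 0.28 (permutation p = 1e-05 and 0.00653), but r = 0.33 without 2 lines. XLOC_016777 had r = 0.80 and rho = 0.46 (permutation p = 1e-05 for both), but r = 0.42 without 2 lines. By contrast XLOC_028247 had r = 0.90 with all lines and 0.89 without 2 lines, and rho = 0.86 (permutation p = 1e-05 for both).

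The lowest correlations among members with at least 50 counts in both sexes were those of XLOC_030730, XLOC_011039, XLOC_026802 and XLOC_027016. XLOC_030730 had r = -0.08 and rho = -0.10 (permutation p = 0.434 and 0.319, adjusted 0.496 and 0.388), although line was significant in males (F 3.60) and in females (F 1.80, edgeR adjusted p = 7.72e-10 and 0.0033). XLOC_011039 had r = 0.04 and rho = 0.10 (permutation p = 0.708 and 0.33, adjusted 0.755 and 0.398). It was at between 3.10 and 7.84 CPM in males and between 1.84 and 7.72 CPM in females. XLOC_026802 had r = 0.15 and rho = 0.15 (permutation p = 0.134 and 0.147, adjusted 0.176 and 0.199), but r = 0.30 after pool means were subtracted, which was significant (adjusted permutation p = 0.00582). XLOC_027016 had r = 0.16 and rho = 0.22 (permutation p = 0.114 and 0.0324, adjusted 0.153 and 0.0519), but r = 0.27 after pool means were subtracted (adjusted permutation p = 0.0166). In the lines on flow cells A and B alone XLOC_027016 had r = 0.50 (adjusted permutation p = 0.00254). With replicate 1 left out it had r = 0.30 (adjusted permutation p = 0.00504), and with replicate 2 left out r was 0.0030 (adjusted permutation p = 0.982).

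XLOC_019425 had between 2.79 and 14.2 CPM with a median of 6.40 in males and between 1.27 and 5.55 CPM with a median of 2.80 in females, with an F for line of 5.44 in males and 1.21 in females (edgeR adjusted p = 2.18e-15 and 0.196). XLOC_011898 had a median of 6.78 CPM in males and 2.67 CPM in females, and its F for line was 6.42 in males and 1.46 in females (edgeR adjusted p = 7.16e-18 and 0.0416). XLOC_011968 had a median of 5.77 CPM in males and 3.56 CPM in females, and was lowest in DGRP_513 in both sexes. Their log2 fold changes were 1.20, 1.30 and 0.69 (SE 0.047, 0.047 and 0.044), all with males higher. All 3 regions reached a mean of 50 counts in males only, so this direction is not independent of the selection.

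Groups of members had nearly the same profile over lines. Pairs of members with r of at least 0.8 in each sex, computed on line means after pool means were subtracted, numbered 39 of 62835 and formed 7 groups with 25 members. The groups were chosen by this correlation, so it is a description. The largest held 8 regions, XLOC_019221, XLOC_019251, XLOC_019259, XLOC_019261, XLOC_019262, XLOC_019266, XLOC_019271 and XLOC_019276. Their pairwise r was between 0.83 and 0.99 in males and between 0.71 and 0.95 in females. The log2 fold changes of males over females of the 8 regions lay within a narrow range, between 1.13 and 1.27.

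The summed level of these 8 regions was between 2.21 and 421 CPM with a median of 223 in males and between 4.44 and 248 CPM with a median of 90.5 in females. DGRP_730 was the lowest male line and DGRP_897 the lowest female line, and both lines were at or under 10% of the median in both sexes. XLOC_019221 had 1.04 and 0.749 CPM in the male replicates of DGRP_730, and 4.44 and 2.72 CPM in its female replicates. XLOC_019276 departed from the other 7 in DGRP_406, where it had 92.6 and 80.5 CPM in the male replicates and 70.9 and 63.2 CPM in the female replicates, against medians of 12.3 CPM in males and 5.65 CPM in females.

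**Figure D4:**
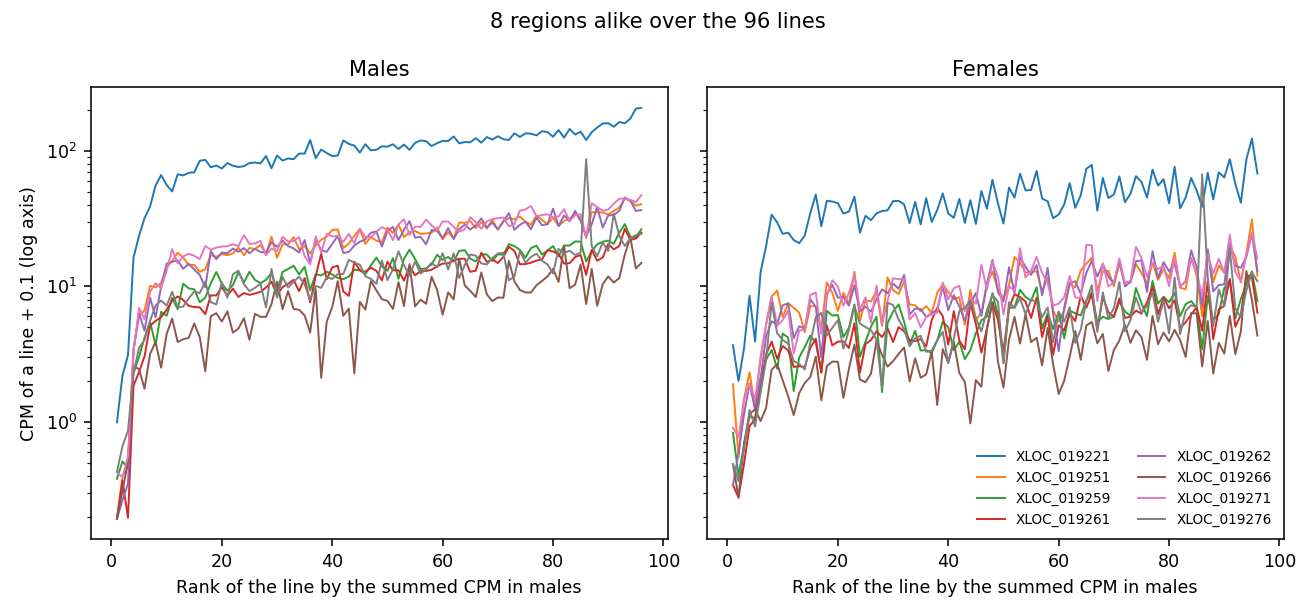
Levels of the 8 regions that were alike over lines, in males (left) and females (right), in CPM plus 0.1 on a log axis, with the 96 lines ordered in both panels by the summed CPM of the 8 regions in males. All 8 curves fall steeply at the left, where the lowest lines are, and XLOC_019276 alone peaks in 1 line near the right.

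DGRP_315 was the lowest line for 2 other groups. XLOC_026561, XLOC_026563, XLOC_026566 and XLOC_027704 were lowest in DGRP_315 in both sexes, with a sum of 5.27 CPM in males and 3.52 CPM in females of that line, against medians of 94.3 CPM in males and 71.2 CPM in females. DGRP_837 was also low for some of these 4, with 1.11 CPM in males and 0.868 CPM in females for XLOC_026566, against medians of 9.56 CPM in males and 6.80 CPM in females. XLOC_027704 was at 1.54 CPM in males and 1.21 CPM in females of DGRP_837, against medians of 13.9 CPM in males and 11 CPM in females. XLOC_026568, XLOC_026571, XLOC_026572 and XLOC_026574 were also lowest in DGRP_315, with a sum of 4.87 CPM in males and 2.72 CPM in females, against medians of 55.9 CPM in males and 43.8 CPM in females. XLOC_026561 had 2.13 and 3.98 CPM in the male replicates of DGRP_315 and 2.78 and 2.57 CPM in its female replicates. In DGRP_315, then, these 8 regions were low in both sexes while XLOC_026672 was at its highest.

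XLOC_011971 and XLOC_011975 were at 0 and 0.0454 CPM in males of DGRP_358 and both at 0 CPM in females of DGRP_358, against medians of 8.30 and 18.2 CPM in males and 5.26 and 11.6 CPM in females. XLOC_011977 and XLOC_011978 were lowest in DGRP_513 in both sexes, where XLOC_011978 was at 5.98 CPM in males and 6.22 CPM in females, against medians of 35.4 and 26.2 CPM. XLOC_011908, XLOC_011913 and XLOC_011919 had log2 fold changes of males over females between 1.19 and 1.27. The seventh group was XLOC_027920 and XLOC_028140, with r = 0.91 in males and 0.89 in females.

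For each named member, the annotated transcript most like it over the 96 lines was sought among the annotated transcripts that reached 50 counts in that sex, 10757 in males or 8893 in females, using the sex with the higher level, after pool means were subtracted. Over all 355 members the median of the highest r was 0.54, and it reached 0.8 for 12 members. XLOC_019689 was most like CG8173 in females (r = 0.91). XLOC_030730 was most like me31B in females (r = 0.86), which encodes an RNA helicase that represses the translation of maternal mRNAs in the germ line. XLOC_026561 was most like Parp1 in males (r = 0.83), which encodes a poly(ADP-ribose) polymerase that acts in chromatin and DNA repair.

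The likeness was weaker for other members. XLOC_027563, XLOC_027581 and XLOC_023758 were all most like FBgn0085550 in males (r = 0.79, 0.75 and 0.61). XLOC_020233 was most like Glut4EF (r = 0.66) and XLOC_019221 most like CG31313 (r = 0.63) in males. XLOC_031440 was most like PIP82 (r = 0.65) and XLOC_016777 most like CngA (r = 0.61) in males, and CngA encodes a subunit of a cyclic nucleotide-gated channel. XLOC_026802 was most like Ubx (r = 0.51), a Hox gene, and XLOC_019425 most like unc-13 (r = 0.53), which encodes a protein that primes synaptic vesicles. XLOC_011968 was most like Gbeta76C (r = 0.56), the G protein subunit of photoreceptors, and XLOC_011898 most like CG17684 (r = 0.63). XLOC_028247, with its strong variation among lines, had no close match, as the highest value was 0.39 for l(2)efl, which encodes a small heat shock protein. For XLOC_028259 the highest value was 0.36 (CG31055) and for XLOC_026672 it was 0.37 (milt). These values are the highest among all the transcripts compared for lines that share pools, and they describe these libraries.

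Differences between the classes of the 18 members with a position were not tested. They have a position because the study listed them for a line by treatment interaction, so their counts of line differences are no independent result. Of these 18 members, 15 were higher in males and 2 in females, against 57.8% and 37.1% of all transcripts tested. Line was significant for 18 in males and 17 in females, against 85.0% and 75.0%, and the correlation between the sexes was significant for 17, against 66.8%. The median r was 0.67 for the 12 intronic regions, 0.62 for the 4 antisense regions and 0.88 for the 2 intergenic regions. XLOC_012695 was highest in DGRP_153 in both sexes, at 212 CPM in males and 124 CPM in females, against medians of 28.7 CPM in males and 19.1 CPM in females. XLOC_032094 was lowest in DGRP_142 and highest in DGRP_367 in both sexes, between 21.9 and 110.3 CPM in males and between 11 and 91.1 CPM in females.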

How the data were processed

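Whole-fly RNA of 96 DGRP lines was analysed in 384 libraries. The authors trimmed reads with cutadapt 1.6, removed those that matched ribosomal, microbial or repeat sequences with BWA 0.7.10, aligned the rest to BDGP5 with STAR 2.4.0e and counted them with HTSeq on known and assembled gene models. The strand setting of the counting is not given in the sources used here. They deposited raw counts, which are not normalized, and replicates were not pooled. Reads that matched more than 1 place (25.8% of alignments tallied), lay in no gene (2.85%) or were ambiguous (1.39%) are assigned to no model and entered neither library sizes nor tests. 162 ribosomal and 35 mitochondrial models did not enter. A symbol was matched to 16733 of 17097 FlyBase identifiers. The members and the lists used were chosen with earlier results of these data known.

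Counts were normalized by TMM in edgeR 4.0.16 (R 4.3.3), and transcripts averaging 5 counts or more were tested together with the quasi-likelihood F-test. A common dispersion was estimated from 400 transcripts at most, spaced over the most abundant transcripts. SEs of sex differences came from limma 3.58.1. DESeq2 1.42.0 gave alternative size factors and a test of sex. Log2 CPM had a prior count of 2. CPM of a line is the mean of 2 replicates. Correlations used Python 3.11.15 (numba 0.67.0, pandas 2.3.3, SciPy 1.17.1 and NumPy 2.4.6).

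Members named were the 8 with the highest mean count, the 5 most different between the sexes in either direction among those alike in all 96 lines (4 were higher in females), the 5 whose F for line was largest in a sex, the 4 highest and 4 lowest correlations between the sexes among members with 50 counts in both, and the 3 just inside and outside 50 counts. Regions named for their profile over lines, or for their position, were chosen after their values were seen. Alternatives were other scalings, no filter or a minimum of 50 counts, limma, DESeq2, a replicate block, pool or flow cell as a covariate, sets of lines, single replicates, Spearman correlation and a prior count of 0.5.

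The tests were tested on simulated counts of 12 lines with 200 transcripts changed. The sex test found 200 of 200 with 10 false calls, the line test 199 in males with 14 false calls and 199 in females with 18, and the interaction test 169 with 6. No sequence is printed. Effects of ethanol were not analysed here.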

Additional observations from a re-analysis of the deposited data

Results flagged for a closer look

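For 8 of the members named for their abundance or sex difference, the difference between males and females itself differed among lines. The test was edgeR's quasi-likelihood test of the interaction between sex and line (384 libraries). It was also significant for 49.8% of the 18062 transcripts tested, so this result is not particular to these 8 members. The adjusted p was 3.89e-05 for XLOC_019221, 1.67e-07 for XLOC_030730 and 0.0224 for XLOC_026561 among the most abundant members. It was 4.98e-06 for XLOC_027581, 2.48e-06 for XLOC_008994 and 9.94e-11 for XLOC_023758 among those higher in males, and 5.55e-16 for XLOC_006565 and 1.77e-05 for XLOC_000859 among those higher in females. Of these, XLOC_006565 was at 10% or less of the median line in 6 lines in males and in 1 line in females. XLOC_026561 was higher in males in 81 of 96 lines and XLOC_019221 in 94, whereas for the other 6 regions all 96 lines had the same direction.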

How the results depend on the processing

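The number of significant members stayed within 1.5 times its reported value under every alternative that was run. It was between 324 and 350 for sex, against 91.9% and 96.7% of all transcripts tested in the same settings. For line in males it was between 241 and 349, against 54.5% and 89.3%. A minimum of 50 counts left 224 members to test for line in females, of which 85.7% were significant, against 88.0% of all transcripts. Under the other settings the number for line in females was between 220 and 309, against 61.3% and 82.8%. It was between 59 and 108 for the sex by line interaction, against 18.6% and 68.1%. For the correlation between the sexes it was between 235 and 334, against 45.3% and 68.5%. With replicate 2 or replicate 1 alone, 337 and 324 members differed between the sexes, against 94.3% and 91.9% of all transcripts. A significant correlation was found for 315 and 246, against 61.8% and 51.4%.

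Replicate numbers were shared by the groups and were not used to pair the samples in the main tests. Deviations of same-numbered libraries correlated by over 0.1 in 40 of 96 lines, with a median of 0.08 and a highest value of 0.43. After the mean difference of the replicates was subtracted, 21 lines were over 0.1, with a median of 0.06. What same-numbered libraries share was not tested. With a replicate block, 342 members differed by sex (limma), against 95.8% of all transcripts, and the interaction was significant for 106 (limma), against 57.3%. Line was then significant for 348 in males and 309 in females, against 89.5% and 82.8%.

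The sex difference of XLOC_027679, which was not significant, changed sign to 0.13 with DESeq2's size factors, 0.12 with DESeq2 without the line block, 0.10 with total counts, 0.23 with a minimum of 50 counts, 0.018 with the replicate block in limma, 0.042 in lines on flow cells A and B, 0.0014 without lines with markers of the other sex and 0.023 without replicate 1, and was -0.034 without replicate 2. It was significant with DESeq2's size factors, without the line block, with total counts and with the minimum of 50 counts, and at -0.10 with no filter. The cause was not tested. Depth limits members that are rare in females, of which 5 could not be tested for line there. Wolbachia status was not fitted.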
